A study of Solanum lycopersicum with 18 samples.

Results

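The genes described here are 102 tomato genes whose transcripts were scarce in leaves after 2 h of NaCl and back near their starting level after 8 h, in both materials of the study. They were chosen by these same values: with levels as group means of log2(FPKM + 1), a gene was taken when 2 h minus 0 h was at most -2 in both materials and 8 h minus 0 h lay within 0.6 on either side of 0 in both. FPKM counts the fragments of a transcript, scaled to its length and to the fragments mapped in the library, so it compares genes per length. A log2 difference of -2 is a 4-fold drop on the FPKM + 1 scale. The deposited table holds 23808 genes, of which 23047 carry a named ID and could be taken, the gene models new to the annotation being left out. The differences between hours are therefore a description without a test, and the word fell is used of a gene that met the 2 h threshold.

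The groups were leaves of Micro-TOM-EX (EX, the material labelled Z) and of Micro-TOM (MT, labelled CK), sampled at 0, 2 and 8 h of treatment with NaCl; each of the 6 groups has 3 libraries, 18 in all. Micro-TOM is a miniature cultivar widely grown in laboratories; the labels give neither how Micro-TOM-EX differs from it nor the salt dose. All plants, those of 0 h included, grew in soil in a greenhouse with 16 h of light. The labels name no untreated leaves of 2 or 8 h, so between hours a response to salt and a change with the time of day cannot be told apart.

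Salt around the roots first limits water uptake, and sodium reaches the leaves later. In that early phase stomata close, growth slows, and transcripts for photosynthesis, light sensing and growth are commonly lowered while those of dehydration defence increase. How fast a transcript can disappear depends on its decay as well as on its synthesis, and many leaf transcripts also cycle over the day under the circadian clock. In bulk leaf RNA, fewer cells of a type and less RNA per cell cannot be told apart.

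The leaf label fits the marker genes: 29 genes of the photosynthetic apparatus summed to 43768 to 46445 FPKM in EX and 30127 to 44170 FPKM in MT at 0 h, where 9 root genes summed to at most 21.9 FPKM. At 2 h the leaf sum was 12048 to 32166 FPKM in EX and 10778 to 17631 FPKM in MT, and at 8 h 6994 to 16937 FPKM in EX and 6793 to 18680 FPKM in MT; no member is on that list. Other marker lists, on which no member stands either, also differed between hours. The 12 guard cell genes summed to 66.3 to 73.2, 21.3 to 26.5 and 35.5 to 43.8 FPKM at 0, 2 and 8 h in EX and to 54.3 to 61.8, 30.5 to 33.5 and 43.2 to 52.1 FPKM in MT. The seed list of 28 genes also had its lowest sums at 2 h, 84.9 to 175 FPKM in EX and 106 to 163 FPKM in MT, and 21 trichome genes their highest at 8 h, 129 to 322 FPKM in EX and 99.5 to 185 FPKM in MT. The flower and pollen list of 60 genes summed to 886 to 1078, 1074 to 1250.4 and 718 to 844 FPKM at 0, 2 and 8 h in EX and to 827 to 1091, 1229 to 1395 and 665 to 741 FPKM in MT. The part of these cell types in the results was not tested. The spacing of the rounded FPKM values gave 18.25 to 19.95 M (mega) fragments per library, and a member had a median of 96.5 to 152 fragments in the 2 h libraries, with 2 to 5 members below 10 fragments. Some libraries stood apart. The number 2 library was the lowest of its group in 67, 74 and 74 of the 102 genes at 0, 2 and 8 h in EX and in 75, 66 and 24 in MT, against 27.1 to 44.1% of all tested genes in those libraries. Without both number 2 libraries of 0 h the rule took 100 genes, 84 of them among the 102. In the number 1 library of EX at 2 h, 85 of the 102 genes had their highest level of that group, where 48.2% of all tested genes did. Its leaf marker sum was 32166 FPKM, against 12048 and 18575 FPKM in the other EX libraries of 2 h. The part of this library in the results was not tested. Without it the rule took 106 genes, all 102 among them. Nothing in the labels says that replicate libraries are separate plants, and p-values measure only the spread between these samples, which may be technical.

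Of the 1159 named genes that fell by 2 or more at 2 h in both materials, 102 (8.80%) were back within 0.6 of 0 h in both materials at 8 h. A further 76 were within 0.6 in 1 material, 55 of them in MT and 21 in EX. Most of the others remained low: 515 genes were still down by 2 or more in both materials and 427 were down by more than 0.6 without reaching that. Only 38 were above 0 h by more than 0.6 in both, and 1 was split between the materials.

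**Figure D1:**
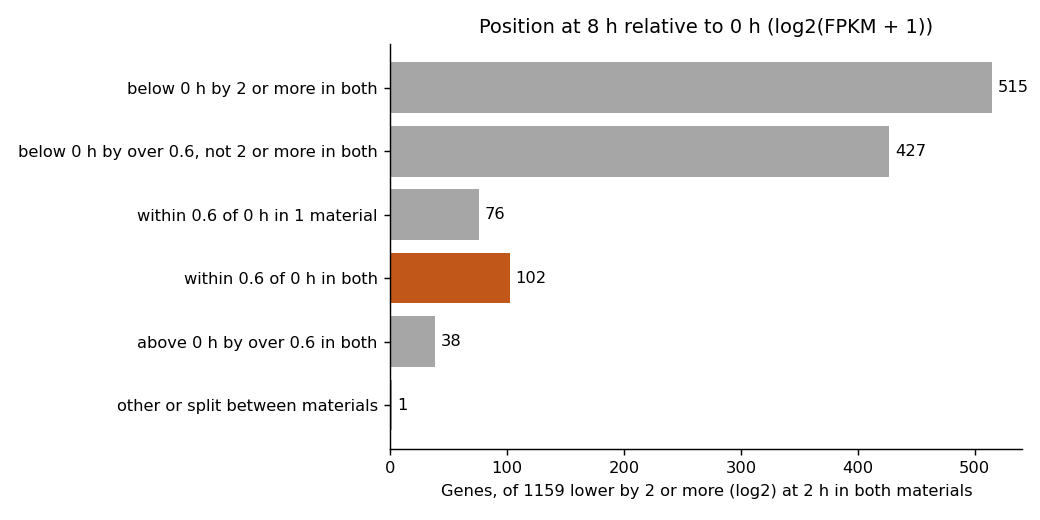
Number of genes by their position at 8 h, among the 1159 named genes lower by 2 or more on the log2(FPKM + 1) scale at 2 h in both materials. Bars are counts of genes; the 102 genes described here are coloured, and 515 genes were still lower by 2 or more in both materials at 8 h.

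Means are written with the SD of the 3 libraries (n = 3) after the sign ±. Across the 102 genes the median difference at 2 h was -2.73 in EX and -2.47 in MT, against -0.37 in EX and -0.31 in MT over all 18402 tested genes. With libraries rescaled by median ratios these medians were -2.39 and -2.20, against -0.01 and -0.04. The median gene kept 11.2% of its 0 h mean FPKM at 2 h in EX and 13.4% in MT. At 8 h the median difference from 0 h was -0.18 in EX and -0.04 in MT. The 8 h mean lay below the 0 h mean in both materials in 52 genes and above it in both in 25. In every one of the 102 genes, the 3 libraries of 2 h lay below all 6 libraries of 0 and 8 h of the same material, in both materials; 25% of tested genes did so (31% in EX and 30.8% in MT taken singly). At 8 h, 34 of the 102 genes in EX and 29 in MT had libraries that did not overlap those of 0 h, where 74.7% of tested genes did not overlap in EX and 73.4% in MT; the rule itself sets these counts. The drop was the larger one in EX for 79 genes and in MT for 23. These counts rest on values the rule used, and the like share over all tested genes was not counted. Over all tested genes the median 2 h difference was also the lower one in EX, -0.37 against -0.31 in MT. Across the 102 genes the 2 h differences of EX and MT had a Pearson r of 0.839 and the 8 h differences one of 0.724, as a description of genes that share libraries and were chosen by these values.

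**Figure D2:**
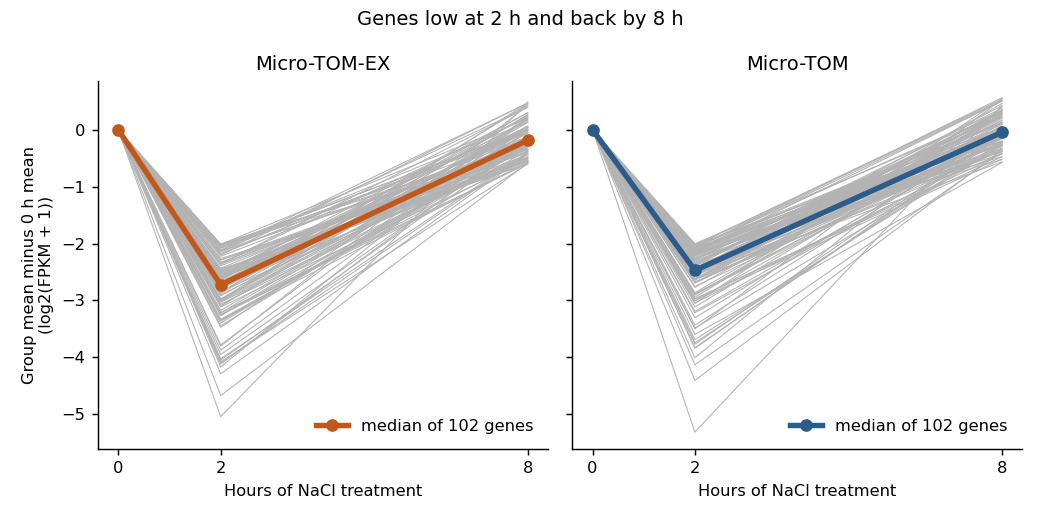
Difference of the group mean from the 0 h mean on the log2(FPKM + 1) scale (y axis) against hours of NaCl treatment (x axis), for EX on the left and MT on the right. Thin lines are the 102 genes and the thick line their median, at -2.73 in EX and -2.47 in MT at 2 h and -0.18 in EX and -0.04 in MT at 8 h.

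Starting levels spanned a wide range. The mean at 0 h over both materials was 4.70 to 1514 FPKM with a median of 30.4 FPKM; 15 genes reached 100 FPKM and 9 were below 10 FPKM. Near the rule's thresholds, the kinase WNK9 (LOC101253529) was just inside at 2 h in EX with -2.01 and an uncharacterized gene, LOC101249717, just outside with -1.95. In MT the peroxisome biogenesis protein 1 gene LOC101248290, whose protein recycles peroxisomal import receptors, was just inside with -2.002, and LOC104644367 just outside with -1.99. At 8 h the FAR1-RELATED SEQUENCE 12-like gene LOC101249315 was just inside in EX with -0.598, beside the ELF4-LIKE 3 gene, and the kinase-like gene LOC101262454 just outside with -0.602. In MT the uncharacterized LOC101267957 was inside with -0.57 and the sugar carrier TMT1 outside with -0.62.

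Among the 4 genes sorted by hand under light and the clock was PHOT1 (chromosome 11), the blue-light receptor kinase phototropin-1. In Arabidopsis phototropin-1 drives phototropism, chloroplast movement and stomatal opening. In EX leaves PHOT1 had 88.1, 66.9 and 87.2 FPKM at 0 h, 10.8, 6.81 and 9.58 FPKM at 2 h and 52.2, 57.8 and 70.8 FPKM at 8 h. In MT leaves PHOT1 had 86.6, 69.05 and 88.6 FPKM at 0 h, 14.4, 8.11 and 13.5 FPKM at 2 h and 106, 87.7 and 47.9 FPKM at 8 h. All libraries of 2 h were far below the rest in both materials, and those of 8 h overlapped those of 0 h. The mean at 2 h was 11.2% in EX and 14.7% in MT of the 0 h mean. Its relative PHOT2, named here after its values were seen and no member, was not back at 8 h: its differences from 0 h were -2.20 in EX and -1.59 in MT at 2 h, and -3.13 in EX and -2.98 in MT at 8 h.

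LOC101256688 (chromosome 7) codes for an ELF4-LIKE 3 protein; ELF4 is part of the evening complex of the Arabidopsis clock. In EX leaves LOC101256688 had 25.9, 32.3 and 29.6 FPKM at 0 h, 1.17, 0.86 and 0.39 FPKM at 2 h and 16.4, 20.5 and 20.2 FPKM at 8 h. In MT leaves LOC101256688 had 29.6, 20.01 and 27.2 FPKM at 0 h, 0.58, 0.75 and 1.58 FPKM at 2 h and 30.1, 23.5 and 20.8 FPKM at 8 h. It was among the lowest at 2 h, with 2.76% in EX and 3.79% in MT of the 0 h mean left. At 8 h all EX libraries remained below the EX libraries of 0 h, whereas those of MT overlapped. The 3 other ELF4-named genes that reached 1 FPKM in at least 1 library did not meet the 2 h threshold. Their differences at 2 h were between -0.75 and 0.62 in EX and between -0.92 and 1.12 in MT. LOC101262953, named for induction by UV-B light, averaged 33.8 ± 8.24, 1.62 ± 1.61 and 34.1 ± 0.433 FPKM at 0, 2 and 8 h in EX leaves and 31.7 ± 16.3, 1.63 ± 0.65 and 41.7 ± 6.23 FPKM in MT leaves. Its lowest 0 h library in MT was the number 2 library, at 13.4 FPKM, against 44.96 and 36.6 FPKM in the others. LOC101249315 belongs to the FAR1-related family, whose founders FAR1 and FHY3 act in phytochrome A signalling in Arabidopsis; its 2 h differences were -2.45 in EX and -2.39 in MT. By the deposited names, 79 tested genes belong to light signalling and the clock. Of these, 16 fell at 2 h in both materials, of which 2 were back at 8 h by the rule and 5 still down by 2 or more. The 2 are PHOT1 and LOC101256688, while LOC101262953 and LOC101249315 are not on this list. The shares over all tested named genes were 6.49% that fell and, of those, 8.80% back and 44.4% still down. The list was not tested against them.

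**Figure D3:**
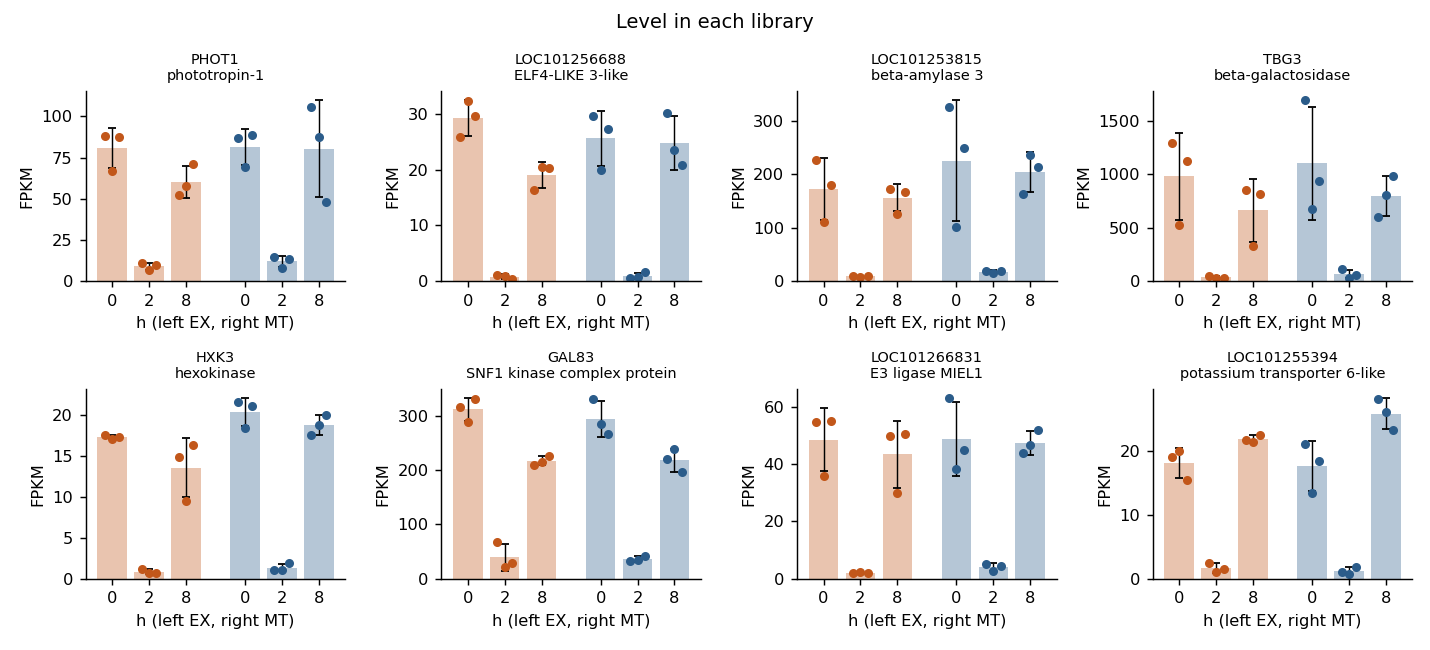
FPKM (y axis, linear from 0) of 8 of the 102 genes by hour of NaCl treatment (x axis), EX on the left and MT on the right of each panel. Points are single libraries, bars the mean of 3 and error bars the SD. In each panel the 2 h points lie below all points of 0 and 8 h of the same material.

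The chloroplast genes were 13 by role. Their 2 h differences lay between -4.12 and -2.06 in EX and between -3.44 and -2.02 in MT. The beta-amylase 3 gene LOC101253815 (chromosome 8) fell furthest; BAM3 is the main enzyme of nightly starch breakdown in Arabidopsis leaves. In EX leaves the beta-amylase gene had 227, 111 and 180.4 FPKM at 0 h, 10.1, 6.78 and 9.19 FPKM at 2 h and 173, 126 and 167 FPKM at 8 h. In MT leaves the beta-amylase gene had 325, 102 and 249 FPKM at 0 h, 19.6, 15.6 and 18.4 FPKM at 2 h and 163, 235 and 214 FPKM at 8 h. The 2 h libraries were lower than all others, and the EX libraries of 2 h lay below the MT libraries of 2 h, a difference of -0.97 (SE 0.34, limma adjusted p = 0.068) that did not pass. It passed in the fit of the 2 groups alone (limma adjusted p = 0.014), with the replicate block (0.0084) and by the q value of the authors' deposited table (2.4e-06). Of the other 6 genes named beta-amylase, LOC101259175 had differences of -4.17 in EX and -4.11 in MT at 2 h, and -5.57 in EX and -5.10 in MT at 8 h. BAM1 stood on the opposite side with 3.21 in EX and 4.52 in MT at 2 h, and 2.04 in EX and 2.38 in MT at 8 h. These relatives were picked for display after their values were seen and were not tested between hours.

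Carotenoid cleavage dioxygenase 4 (LOC101250535), which cuts carotenoids in plastids, averaged 57.7 ± 10.9, 5.97 ± 1.06 and 42.04 ± 2.17 FPKM at 0, 2 and 8 h in EX leaves and 44.8 ± 13, 8.63 ± 1.903 and 41.6 ± 6.83 FPKM in MT leaves. All EX libraries of 8 h were below those of 0 h, and the MT libraries overlapped. The rubisco accumulation factor 1.1 gene LOC101251433, a chaperone of rubisco assembly, averaged 56.01 ± 0.597, 5.25 ± 2.71 and 54.9 ± 5.58 FPKM at 0, 2 and 8 h in EX leaves and 44.03 ± 0.591, 6.77 ± 2.32 and 56.7 ± 6.02 FPKM in MT leaves. In MT all its 8 h libraries were above those of 0 h. Pigment and cofactor enzymes were present too: uroporphyrinogen decarboxylase (LOC101250511), of the chlorophyll and heme pathway, had 2 h differences of -2.84 in EX and -2.42 in MT, and RIBA 3 (LOC101263281), of riboflavin synthesis, -3.45 in EX and -3.01 in MT. Plastid glucose-6-phosphate 1-dehydrogenase (LOC101258470), which opens the oxidative pentose phosphate pathway, had -2.27 in EX and -2.27 in MT, and the prolyl isomerase FKBP17-2 (LOC101251075) -3.25 in EX and -2.63 in MT.

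Genes that run plastid gene expression and import made up the rest. Sigma factors guide the plastid-encoded RNA polymerase to promoters, and the sigF gene LOC101267154 (chromosome 9) was the one of 7 sigma factor genes to meet the rule. In EX leaves sigF had 17.1, 14.6 and 14.9 FPKM at 0 h, 3.5, 0.96 and 1.24 FPKM at 2 h and 14.6, 13.3 and 14.4 FPKM at 8 h. In MT leaves sigF had 16.3, 14.3 and 15.3 FPKM at 0 h, 2.85, 1.16 and 2.87 FPKM at 2 h and 16.9, 17.3 and 15.03 FPKM at 8 h. Its 2 h libraries were the lowest in both materials. Its 8 h libraries overlapped those of 0 h in MT, while in EX the highest of 8 h only equalled the lowest of 0 h, at 14.62 FPKM. Of the other 6, both sigA genes were at -2.70 in EX and -2.13 in MT and -2.48 in EX and -1.89 in MT at 8 h, sigB was at -1.15 in EX and -1.01 in MT and sigC at -1.30 in EX and -0.94 in MT. The plastid ribosomal protein S6 alpha gene LOC101249844 averaged 92.5 ± 23.03, 15.6 ± 5.37 and 62.3 ± 10.7 FPKM at 0, 2 and 8 h in EX leaves and 80.2 ± 13.5, 16.9 ± 2.65 and 57.2 ± 3.61 FPKM in MT leaves. All its libraries of 8 h were below those of 0 h in both materials. The RNA helicase gene LOC101246924 (DExH15) had 2 h differences of -2.06 in EX and -2.09 in MT, and the MTERF2 gene LOC101250346, of a family that acts on organelle transcripts, -2.21 in EX and -2.02 in MT. MTERF2 was above its 0 h mean at 8 h, by 0.47 in EX and 0.54 in MT. Toc34 (LOC101267995) and a Toc159 (LOC101248612), the GTPase receptors that admit proteins at the chloroplast envelope, had 2 h differences of -2.43 in EX and -2.12 in MT for Toc34 and -2.49 in EX and -2.54 in MT for Toc159. A second Toc159 gene, LOC101258595, fell alike but was at -1.21 in EX and -0.96 in MT at 8 h and so is no member.

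Set against the names of all tested genes, 161 belong to photosynthesis, chlorophyll and carbon fixation; 48 of them fell at 2 h in both materials, 1 was back by 8 h by the rule and 28 were still down by 2 or more. Of 424 genes of plastid gene expression, 40 fell, 3 were back and 9 were still down. These counts come with an overall share of 6.49% of tested named genes that fell. Among all genes that fell, 8.80% were back and 44.4% still down. The counts were not tested.

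Sugar and cell wall genes were 9. The beta-galactosidase TBG3 (chromosome 3), an enzyme that removes galactose from wall polysaccharides, had the second highest 0 h mean of the 102 and one of the deepest drops. In EX leaves TBG3 had 1296, 522 and 1125 FPKM at 0 h, 45.6, 28.2 and 32.6 FPKM at 2 h and 852, 325 and 813 FPKM at 8 h. In MT leaves TBG3 had 1699, 676 and 936 FPKM at 0 h, 109, 28.04 and 61.3 FPKM at 2 h and 604, 807 and 981 FPKM at 8 h. At 2 h 3.62% in EX and 6.004% in MT of the 0 h mean remained. Within 0 h the number 2 libraries were the lowest in both materials, and at 8 h again in EX. The 8 h libraries of both materials overlapped those of 0 h. The highest level of all belonged to the glycine-rich cell wall structural protein gene LOC101256127 (chromosome 9). In EX leaves the glycine-rich gene had 1572, 1309 and 1489 FPKM at 0 h, 401, 329.5 and 279.6 FPKM at 2 h and 1953, 1455 and 2867 FPKM at 8 h. In MT leaves the glycine-rich gene had 1929.5, 1271 and 1511 FPKM at 0 h, 335, 393 and 375 FPKM at 2 h and 2151, 2239 and 2491 FPKM at 8 h. It kept more than most at 2 h, 23.1% in EX and 23.4% in MT, and in MT all 8 h libraries lay above those of 0 h.

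AI codes for an acid invertase, which splits sucrose into glucose and fructose. In EX leaves AI had 210, 139.8 and 220.2 FPKM at 0 h, 29.9, 18.6 and 21.5 FPKM at 2 h and 180.5, 149 and 166 FPKM at 8 h. In MT leaves AI had 158.8, 116 and 156 FPKM at 0 h, 25.98, 26 and 30.2 FPKM at 2 h and 131, 197 and 184 FPKM at 8 h. The 8 h libraries overlapped those of 0 h in both materials. Wiv-1, another acid invertase and no member, had differences of 3.38 in EX and 3.01 in MT at 2 h, and 3.48 in EX and 3.68 in MT at 8 h. HXK3 codes for a hexokinase, which phosphorylates the hexoses so released and in Arabidopsis also senses glucose. In EX leaves HXK3 had 17.5, 17.1 and 17.2 FPKM at 0 h, 1.18, 0.66 and 0.65 FPKM at 2 h and 14.9, 9.44 and 16.3 FPKM at 8 h. In MT leaves HXK3 had 21.6, 18.4 and 21.1 FPKM at 0 h, 1.11, 1.08 and 1.87 FPKM at 2 h and 17.5, 18.7 and 19.9 FPKM at 8 h. Every 8 h library of EX was below every 0 h library of EX, while those of MT overlapped. Among the other hexokinase genes, none of which fell by the threshold, Hxk2 was at 0.07 in EX and 0.13 in MT, hxk1 at 0.69 in EX and 0.43 in MT and plastidic HXK4 at 0.48 in EX and 0.48 in MT at 2 h.

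GAL83 (chromosome 12) codes for a beta subunit of the SNF1-related kinase complex, the energy sensor of plant cells. In EX leaves GAL83 had 317, 287 and 329.9 FPKM at 0 h, 68.1, 20.9 and 29.7 FPKM at 2 h and 210, 215 and 227 FPKM at 8 h. In MT leaves GAL83 had 330.4, 285 and 266 FPKM at 0 h, 33.6, 33.7 and 42.3 FPKM at 2 h and 220.5, 238 and 196 FPKM at 8 h. The number 1 library of EX was the highest of the 2 h libraries, and the 8 h libraries lay below those of 0 h in both materials. Other subunits of the complex had other profiles: the gamma-1 gene LOC101262200 had differences of 1.11 in EX and 1.09 in MT at 2 h, and 3.30 in EX and 3.08 in MT at 8 h, and the other anchoring gene, Sip1, -1.48 in EX and -1.38 in MT at 2 h, and -1.16 in EX and -0.84 in MT at 8 h. The sorbitol related enzyme SDH averaged 93.8 ± 20.7, 17.9 ± 6.101 and 71.4 ± 11.9 FPKM at 0, 2 and 8 h in EX leaves and 95.5 ± 16.7, 20.03 ± 3.13 and 72.4 ± 2.22 FPKM in MT leaves. A callose synthase (LOC101249601), which makes the wall glucan callose, had 2 h differences of -2.69 in EX and -2.49 in MT, and the glycan-trimming endo-beta-mannosidase gene LOC101267848 -2.73 in EX and -2.46 in MT.

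LOC101251942 (chromosome 2) is named alpha-1,4-glucan-protein synthase, a family of reversibly glycosylated proteins of wall sugar supply. In EX leaves LOC101251942 had 14.1, 8.53 and 8.58 FPKM at 0 h, 0, 0 and 0 FPKM at 2 h and 21.3, 6.41 and 11.5 FPKM at 8 h. In MT leaves LOC101251942 had 19.2, 28.8 and 17.8 FPKM at 0 h, 4.85, 4.51 and 3.01 FPKM at 2 h and 19.8, 31.02 and 16.3 FPKM at 8 h. It was listed at 0 in all EX libraries of 2 h, so no fold is given against that group. The gene of the same name LOC101253371 is no member and had differences of 1.12 in EX and 1.22 in MT at 2 h, and 0.45 in EX and 0.40 in MT at 8 h; fragments that fit both copies cannot be told apart, and whether they were split between them was not tested.

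**Figure D4:**
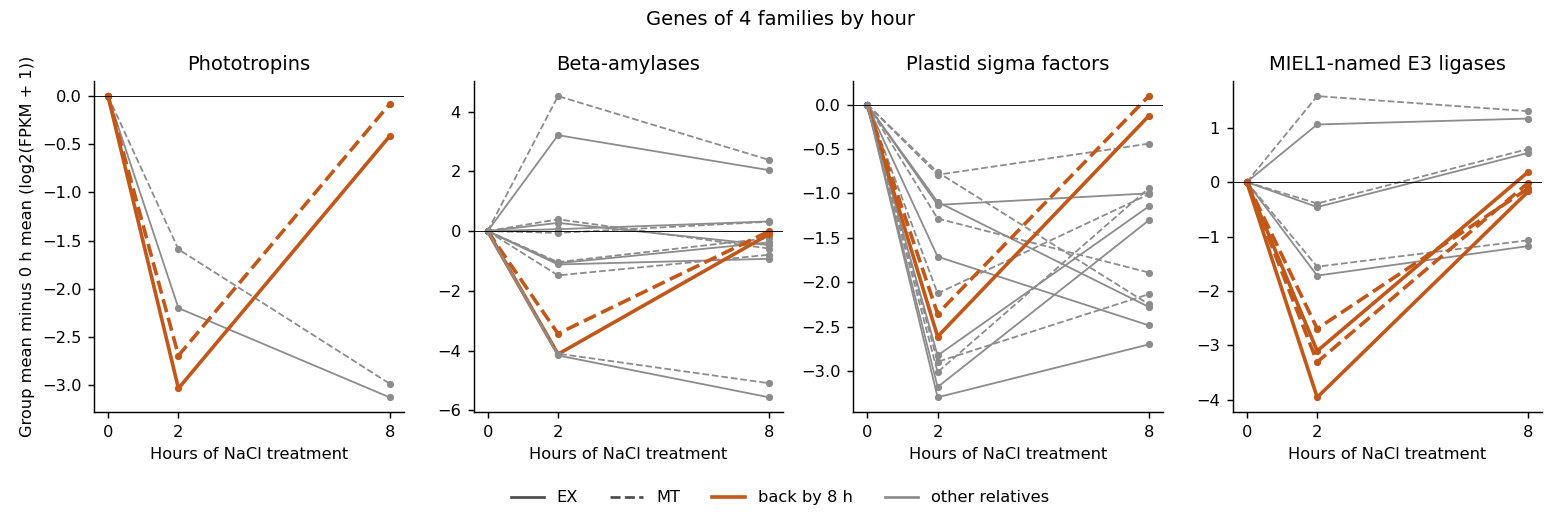
Difference of the group mean from the 0 h mean on the log2(FPKM + 1) scale (y axis) by hour of NaCl treatment (x axis). Genes are those named phototropin (2), beta-amylase (7), plastid sigma factor (7) and MIEL1 (5) that reached 1 FPKM in at least 1 library. Gene models new to the annotation are left out. Coloured lines are genes back by 8 h by the rule, grey lines the other genes of that name, solid lines EX and dashed lines MT; the grey phototropin, PHOT2, is at -3.13 in EX and -2.98 in MT at 8 h.

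Among 3 hormone genes, LOC101251682 (chromosome 5) is named JAR1, the enzyme that joins jasmonic acid to isoleucine to give the active hormone. In EX leaves JAR1 had 73.01, 68.4 and 71.3 FPKM at 0 h, 4.54, 1.56 and 2.48 FPKM at 2 h and 46.4, 35.2 and 88.05 FPKM at 8 h. In MT leaves JAR1 had 94.6, 67.3 and 95.1 FPKM at 0 h, 11.1, 7.98 and 10.2 FPKM at 2 h and 66.2, 62.2 and 49.8 FPKM at 8 h. The 2 h libraries of EX were lower than those of MT without overlap. At 8 h the EX libraries overlapped those of 0 h and the MT libraries were below them. Of the other JAR1-named genes, LOC101258495 had differences of -2.67 in EX and -2.47 in MT at 2 h, and -3.32 in EX and -2.60 in MT at 8 h. LOC101268624 had -2.68 in EX and -2.42 in MT at 2 h, and -2.40 in EX and -1.65 in MT at 8 h. LOC101258277 had -2.11 in EX and -1.80 in MT at 2 h, and -2.05 in EX and -1.66 in MT at 8 h. LOC101262053 alone was higher at 2 h, with 1.88 in EX and 1.47 in MT, and had -0.80 in EX and -0.89 in MT at 8 h. Salicylate carboxymethyltransferase (LOC101265985), which makes the volatile methyl salicylate, averaged 26.04 ± 10.8, 2.28 ± 0.711 and 25.4 ± 2.51 FPKM at 0, 2 and 8 h in EX leaves and 15.7 ± 1.21, 3.14 ± 1.03 and 23 ± 3.68 FPKM in MT leaves. The SAUR21-like gene LOC104645436, of a family of small auxin-induced transcripts, averaged 7.58 ± 1.59, 0.737 ± 0.0379 and 4.87 ± 0.741 FPKM at 0, 2 and 8 h in EX leaves and 9.66 ± 1.8, 1.22 ± 0.472 and 7.48 ± 3.21 FPKM in MT leaves. Of 114 tested genes on the list of abscisic acid, gibberellin, cytokinin, brassinosteroid and strigolactone, 9 fell at 2 h and none is a member, where 8.80% of all genes that fell are.

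The 7 signalling genes had 2 h differences between -3.78 and -2.01 in EX and between -3.74 and -2.02 in MT. The most abundant was LOC101260974 (chromosome 10), a plasma membrane-associated cation-binding protein; its Arabidopsis relative PCAP1 binds calcium and membrane phosphoinositides. In EX leaves the cation-binding gene had 418, 325 and 440.5 FPKM at 0 h, 44.5, 52.3 and 49.6 FPKM at 2 h and 552, 362 and 524 FPKM at 8 h. In MT leaves the cation-binding gene had 659, 449.5 and 498 FPKM at 0 h, 51.6, 26.8 and 41.3 FPKM at 2 h and 422, 484 and 468 FPKM at 8 h. It was one of the 23 genes whose drop was larger in MT, and its 8 h libraries overlapped those of 0 h. The CBSX3 gene LOC101250246, in Arabidopsis a mitochondrial regulator of thioredoxin, averaged 378 ± 24.4, 47.03 ± 13.8 and 308 ± 38.8 FPKM at 0, 2 and 8 h in EX leaves and 335 ± 40.8, 51.2 ± 6.38 and 286 ± 9.62 FPKM in MT leaves. LOC101264787, a CDPK-related kinase, averaged 109 ± 27.9, 10.9 ± 4.83 and 75.5 ± 8.15 FPKM at 0, 2 and 8 h in EX leaves and 104 ± 22.5, 15.7 ± 1.08 and 76.4 ± 2.69 FPKM in MT leaves. In CBSX3 all EX libraries of 8 h were below those of 0 h, and in the CDPK-related kinase all MT libraries were. The receptor-like kinase HSL1 (LOC101244280), of the HAESA-like family of peptide receptors, had 2 h differences of -2.11 in EX and -2.18 in MT, hypersensitive-induced response protein 1 (LOC101250039) -3.78 in EX and -3.69 in MT, and Hop-interacting protein THI135 (LOC101055536) -2.50 in EX and -2.02 in MT. HSL1 was the only one of the 50 receptor kinase genes that fell to be back by the rule, while 21 of them were still down by 2 or more. Of all genes that fell, 8.80% were back by the rule and 44.4% still down by 2 or more.

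Protein breakdown supplied 8 genes, with 2 h differences between -3.95 and -2.02 in EX and between -3.31 and -2.10 in MT. Ubiquitin ligases of class E3 attach ubiquitin to chosen proteins, and MIEL1 is an Arabidopsis E3 that acts on MYB factors of defence and abscisic acid responses. A pair of genes named MIEL1 met the rule, LOC101266831 (chromosome 6) and LOC101256801 (chromosome 9). In EX leaves LOC101266831 had 54.7, 35.9 and 55.1 FPKM at 0 h, 1.96, 2.41 and 2.08 FPKM at 2 h and 49.9, 29.9 and 50.5 FPKM at 8 h. In MT leaves LOC101266831 had 63.2, 38.4 and 44.8 FPKM at 0 h, 5.13, 2.59 and 4.44 FPKM at 2 h and 43.7, 46.6 and 52.1 FPKM at 8 h. The EX libraries of 2 h were all below the MT libraries of 2 h, and 8 h overlapped 0 h. In EX leaves LOC101256801 had 39.8, 30.7 and 33.1 FPKM at 0 h, 3.84, 2.88 and 2.71 FPKM at 2 h and 51.7, 26.3 and 44.4 FPKM at 8 h. In MT leaves LOC101256801 had 48.1, 33.6 and 41.05 FPKM at 0 h, 6.9, 3.93 and 5.77 FPKM at 2 h and 28.2, 39.4 and 46.6 FPKM at 8 h. It showed the same order, with the EX libraries of 2 h lowest. At 2 h neither difference between the materials passed: it was -0.65 (SE 0.24, limma adjusted p = 0.088) for LOC101266831 and -0.64 (SE 0.24, limma adjusted p = 0.096) for LOC101256801. LOC101266831 passed with a pseudocount of 0.1 (limma adjusted p = 0.046), without the number 2 library of MT at 2 h (0.032) and by the q value of the authors' deposited table (0.043). Another gene of the name, LOC101254223, had differences of 1.06 in EX and 1.58 in MT at 2 h, and 1.17 in EX and 1.30 in MT at 8 h.

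KEG (LOC101263144) is an E3 that in Arabidopsis removes the abscisic acid factor ABI5. In EX leaves KEG had 13.97, 14.5 and 12.7 FPKM at 0 h, 1.2, 0.93 and 0.93 FPKM at 2 h and 20.8, 15.5 and 21.1 FPKM at 8 h. In MT leaves KEG had 15.2, 9.73 and 13.5 FPKM at 0 h, 1.05, 0.98 and 1.52 FPKM at 2 h and 19.4, 17.7 and 16.3 FPKM at 8 h. At 8 h all its libraries lay above those of 0 h in both materials. The BOI-related ligase gene LOC101246293 averaged 30.9 ± 8.65, 3.84 ± 0.205 and 38.2 ± 19.2 FPKM at 0, 2 and 8 h in EX leaves and 23.9 ± 2.902, 3.75 ± 0.962 and 32.7 ± 6.16 FPKM in MT leaves; in EX its 8 h libraries were far apart. RHC1A (LOC101265464) and the BRCA1-associated RING protein (LOC101248420) were scarcer, with 0 h means of 9.01 FPKM for RHC1A and 5.93 FPKM for the RING protein. The COP9 signalosome subunit 2 gene LOC101258618, part of the complex that strips the RUB1 modifier from cullin ligases, had 2 h differences of -2.77 in EX and -2.62 in MT, and a ubiquitin-conjugating E2-like gene, LOC101245577, -2.54 in EX and -2.38 in MT. By name, 201 tested genes are E3 ubiquitin-protein ligases: 14 of them fell at 2 h in both materials, 5 were back by the rule and 1 was still down by 2 or more. Over the wider list of protein breakdown, 1041 genes were tested, 46 fell, 7 were back and 14 still down. Of all tested named genes 6.49% fell, and of those that fell 8.80% were back and 44.4% still down by 2 or more. The counts of both lists were not tested against these shares.

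The 8 genes of transcription and the nucleus had 2 h differences between -3.37 and -2.22 in EX and between -2.91 and -2.05 in MT. bHLH104 (LOC101248331), in Arabidopsis a factor of iron homeostasis, averaged 47.5 ± 2.52, 6.27 ± 1.27 and 41.1 ± 14.4 FPKM at 0, 2 and 8 h in EX leaves and 44.02 ± 8.62, 6.64 ± 1.02 and 39.5 ± 6.57 FPKM in MT leaves. A histone H2A-like gene, LOC101265669, averaged 78.9 ± 14.2, 8.02 ± 2.82 and 75.6 ± 5.83 FPKM at 0, 2 and 8 h in EX leaves and 71.7 ± 9.29, 8.69 ± 1.41 and 86.2 ± 9.23 FPKM in MT leaves. Libraries of 8 h overlapped those of 0 h in both of these genes and both materials. DIVARICATA (LOC101260117), named after a MYB factor of snapdragon flowers, averaged 18.9 ± 2.22, 2.097 ± 1.25 and 13.3 ± 1.48 FPKM at 0, 2 and 8 h in EX leaves and 12.1 ± 2.09, 1.13 ± 0.355 and 14.4 ± 3.28 FPKM in MT leaves. In EX its 8 h libraries were all below those of 0 h, and in MT they overlapped. The AT-hook genes LOC101252942 and LOC101252483, for proteins that bind AT-rich DNA, had 2 h differences of -2.35 in EX and -2.36 in MT for LOC101252942 and -3.37 in EX and -2.49 in MT for LOC101252483. Ribonuclease III (LOC101268172), which cuts double-stranded RNA, had -2.22 in EX and -2.05 in MT. A nuclear pore gene (LOC101254388) and the DNA repair gene RAD16-like (LOC101249085) complete the group. A transcription factor family is given in the deposited table for 5 of the 102 genes (4.90%), near the 6.51% of tested named genes. Of the 515 that were still down at 8 h, 12.6% have one. No gene of the name lists of MYB, WRKY, AP2/ERF or zinc finger factors is a member. On these lists 11 MYB, 3 WRKY, 10 AP2/ERF and 24 zinc finger genes fell, and 8.80% of all genes that fell are members. DIVARICATA is not on the MYB list, which goes by the deposited names.

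Transport and membrane genes were 11, with 2 h differences between -3.10 and -2.01 in EX and between -3.05 and -2.002 in MT. LOC101255394 (chromosome 5) codes for potassium transporter 6-like, of the KUP family of potassium carriers. In EX leaves the potassium transporter had 19.1, 19.9 and 15.5 FPKM at 0 h, 2.54, 1.05 and 1.51 FPKM at 2 h and 21.7, 21.3 and 22.5 FPKM at 8 h. In MT leaves the potassium transporter had 21.1, 13.3 and 18.4 FPKM at 0 h, 1.13, 0.77 and 1.85 FPKM at 2 h and 28.2, 26.1 and 23.2 FPKM at 8 h. Its 8 h libraries were all above those of 0 h in both materials, and at 8 h all EX libraries were below all MT libraries. That difference, -0.23 (SE 0.21, limma adjusted p = 0.72), did not pass. A WAT1-related gene (LOC101247182), named after a vacuolar auxin carrier of Arabidopsis, averaged 22.6 ± 8.07, 2.13 ± 0.878 and 18 ± 3.45 FPKM at 0, 2 and 8 h in EX leaves and 16.02 ± 5.07, 2.44 ± 1.1 and 14.4 ± 2.17 FPKM in MT leaves. The mitochondrial substrate carrier gene LOC101250210 averaged 25.8 ± 3.9, 2.57 ± 0.789 and 25.9 ± 2.82 FPKM at 0, 2 and 8 h in EX leaves and 20.6 ± 5.53, 1.9 ± 0.144 and 24.9 ± 5.75 FPKM in MT leaves. S-acyltransferase 1 (LOC101257818), which adds fatty acids to proteins, had 2 h differences of -2.08 in EX and -2.27 in MT, and nucleobase-ascorbate transporter 12 (LOC101248167) -2.57 in EX and -2.52 in MT. The CASP-like gene LOC101244045 had 4.91 to 6.81 FPKM in EX and 3.96 to 9.33 FPKM in MT at 0 h. At 2 h it had at most 0.23 FPKM in EX and 0.49 FPKM in MT, and at 8 h 5.2 to 6.09 FPKM in EX and 3.84 to 12.2 FPKM in MT. The others are LOC101246199, LOC101247611, LOC101256423, LOC101244433 and the peroxisome gene LOC101248290.

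Of 6 further enzymes, serine decarboxylase (LOC101262912, chromosome 4), which makes ethanolamine for membrane lipids, was the most abundant. In EX leaves serine decarboxylase had 247, 165 and 245 FPKM at 0 h, 56.6, 11.96 and 15.8 FPKM at 2 h and 152, 131 and 150.1 FPKM at 8 h. In MT leaves serine decarboxylase had 358, 243 and 263 FPKM at 0 h, 45.9, 37.8 and 47.9 FPKM at 2 h and 213, 268 and 189 FPKM at 8 h. The number 1 library of EX stood well above the other EX libraries of 2 h. The cytochrome P450 gene CYP72A219 (LOC101264947) averaged 64.5 ± 12.9, 2.603 ± 0.446 and 75.2 ± 14.5 FPKM at 0, 2 and 8 h in EX leaves and 62.4 ± 14, 2.91 ± 0.679 and 81.7 ± 8.07 FPKM in MT leaves, which left 4.04% in EX and 4.67% in MT at 2 h. Coclaurine N-methyltransferase (LOC101249842), named after an alkaloid enzyme, averaged 54.7 ± 1.05, 8.52 ± 2.001 and 68.3 ± 10.8 FPKM at 0, 2 and 8 h in EX leaves and 54.4 ± 2.53, 10.3 ± 1.38 and 71.4 ± 8.21 FPKM in MT leaves. Flavin-containing monooxygenase 1 (LOC101254042), in Arabidopsis an enzyme of systemic resistance, had 2 h differences of -2.99 in EX and -2.89 in MT, and the glucosyltransferase LOC101258806 -2.48 in EX and -2.47 in MT.

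The deepest drop of all was that of the chaperone gene dnaJ 20 (LOC101245400, chromosome 9), whose J-domain protein hands clients to Hsp70. In EX leaves dnaJ 20 had 65.3, 35.2 and 41.5 FPKM at 0 h, 0.86, 0 and 0.52 FPKM at 2 h and 78.01, 59.4 and 57.9 FPKM at 8 h. In MT leaves dnaJ 20 had 149, 17 and 84.8 FPKM at 0 h, 1.09, 0.59 and 0.1 FPKM at 2 h and 82.8, 89.8 and 74.1 FPKM at 8 h. The number 2 library of EX was listed at 0 at 2 h. The 0 h libraries of MT were spread more widely on the log2 scale than those of any other member, and the number 2 library was the lowest. The BTB/POZ gene LOC101257821, of a domain found in adaptors of cullin ligases, averaged 107 ± 16.4, 5.75 ± 1.72 and 81.3 ± 12.4 FPKM at 0, 2 and 8 h in EX leaves and 91.1 ± 21.8, 5.34 ± 1.06 and 84.7 ± 1.76 FPKM in MT leaves. Both other BTB/POZ genes, LOC101253943 and LOC101262039, had 2 h differences of -2.81 in EX and -2.77 in MT for LOC101253943 and -2.08 in EX and -2.24 in MT for LOC101262039. Hop-interacting protein THI016 (LOC101055514) had -2.61 in EX and -2.09 in MT, and the yippee-like gene LOC101252662, of a zinc-binding family, -2.50 in EX and -2.19 in MT. All 14 genes of this mixed group, which includes an ankyrin repeat protein (LOC101249806) and a filament-like protein (LOC101258634), lay within -5.05 to -2.08 in EX and -5.32 to -2.05 in MT.

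The table gives no function for 19 of the 102 genes, and their 2 h differences lay between -4.10 and -2.03 in EX and between -4.41 and -2.08 in MT. LOC778362 (chromosome 10) was the most abundant of them. In EX leaves LOC778362 had 959.6, 950.3 and 988 FPKM at 0 h, 146, 75.7 and 91.8 FPKM at 2 h and 757, 476 and 731 FPKM at 8 h. In MT leaves LOC778362 had 738, 941 and 659 FPKM at 0 h, 62.5, 65.95 and 75.8 FPKM at 2 h and 565, 679 and 677 FPKM at 8 h. Its EX libraries of 8 h were all below those of 0 h, and its MT libraries overlapped. LOC101253483 averaged 108 ± 15.7, 5.56 ± 2.32 and 81.4 ± 18.4 FPKM at 0, 2 and 8 h in EX leaves and 101.5 ± 3.49, 3.85 ± 0.622 and 79.3 ± 5.01 FPKM in MT leaves and had one of the deepest drops, -4.10 in EX and -4.41 in MT. Below 1 FPKM in all 3 libraries of 2 h were 7 of the 102 genes in EX and 5 in MT, 2 of them in both.

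What the 102 genes share beyond the rule was read from the deposited annotation, beside the 515 genes that fell and were still down by 2 or more at 8 h. The words chloroplast or chloroplastic occur in 14 names (13.7%), against 13.0% of the 515 and 6.14% of all tested named genes. The gene ontology term thylakoid is given to 2 (1.96%), against 9.71% of the 515 and 1.39% of all tested named genes. Only 1 transcript is listed for 51 of the 102 (50%), against 70.9% of the 515 and 58.0% of tested genes. The median gene length, introns included, was 4635 bases, against 2440 bases in the 515 and 4373 bases in tested genes. The median 0 h level was 30.4 FPKM, against 51.3 FPKM in the 515 and 11.6 FPKM in tested genes. The rule itself bears on this level, because a gene near 0 FPKM at 0 h cannot drop by 2 on this scale. The lowest 0 h level was 4.70 FPKM in the 102 and 4.14 FPKM in the 515, against 0 FPKM in tested genes. None of these differences was tested. No gene of ribosome biogenesis (137 tested), the cytosolic ribosome (208) or the NAC factors (40) fell at 2 h in both materials. Of all tested named genes, 6.49% did, a share that would make only a few genes of a list as short as that of the NAC factors. These lists were not tested against it.

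The genes lie on all 12 chromosomes, from 3 on chromosome 6 to 13 on chromosome 1. On chromosome 3, the ribonuclease III gene LOC101268172 (bases 69610781 to 69616288) and TBG3 (69634290 to 69640129) are next to each other in the deposited table, and the uncharacterized LOC101267879 (69645263 to 69650398) lies 1 gene beyond TBG3, 5134 bases away. On chromosome 2, LOC101259100 (52680598 to 52681466) and the glucosyltransferase LOC101258806 (52682682 to 52684603) are adjacent with 1216 bases between them. These positions come from the deposited table; its genome build is not given in the sources used here. Strand use in counting is not stated, so reads of overlapping genes cannot be told apart.

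The comparison of EX with MT at the same hour asks whether the 102 genes stood at different levels in the 2 materials. The rule sets no threshold on this difference, but it asks for a drop and a return in both materials, using the group means of both; it bounds the change between 0 and 8 h in each material and leaves out genes that fell in 1 material alone, so the counts of genes that passed are not independent of the choice. The shares of tested genes beside them are given as background only. The comparison was made for all 18402 tested genes with limma, with p-values adjusted by the Benjamini-Hochberg method and 0.05 as the threshold. At 0 h, 0 of the 102 genes passed, where 4.01% of tested genes did; 5 had an unadjusted p under 0.05, and 1 passed by the q values of the authors' deposited table, where 3.86% of all genes with a q value did. At 8 h, 0 passed, where 1.67% of tested genes did; 8 had an unadjusted p under 0.05, and 4 passed in the authors' deposited table, where 2.71% of all genes did. At 2 h, 6 of the 102 passed, 1 higher and 5 lower in EX, where 13.7% of tested genes did (6.22% higher and 7.48% lower). At that hour 18 had an unadjusted limma p under 0.05, and 8 passed in the authors' deposited table, where 13.1% of all genes did. The share of tested genes with an unadjusted p under 0.05 was not counted at any hour. The median EX minus MT difference over the 102 genes was 0.07 at 0 h, -0.12 at 2 h and -0.05 at 8 h, against 0.06, 0.00 and -0.02 over tested genes.

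JAR1 was among the 6. Its EX libraries of 2 h, given above with those of MT, were the lower ones, with a difference of -1.54 (SE 0.29, limma adjusted p = 0.0024). LOC101251942, listed at 0 in every EX library of 2 h and at 3.01 to 4.85 FPKM in MT, passed with a limma adjusted p of 0.00023. It was lower in EX than in MT at 0 h too, without overlap of the libraries, with a difference of -1.01 (SE 0.33, limma adjusted p = 0.12). The transmembrane ascorbate ferrireductase 1 gene LOC101249610, of a family of membrane cytochromes that pass electrons from ascorbate, was also lower. In EX leaves the ferrireductase had 86.9, 75.97 and 92.5 FPKM at 0 h, 15.1, 11.3 and 12.1 FPKM at 2 h and 107, 82.3 and 114 FPKM at 8 h. In MT leaves the ferrireductase had 109.7, 89.3 and 105 FPKM at 0 h, 26.9, 21.3 and 22.6 FPKM at 2 h and 125, 124 and 136 FPKM at 8 h. At 2 h the EX libraries lay below the MT libraries without overlap, with a difference of -0.83 (SE 0.14, limma adjusted p = 0.00099). At 8 h the order was the same but the difference of -0.35 (SE 0.14, limma adjusted p = 0.30) did not pass.

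The yippee-like gene LOC101261793 and the uncharacterized LOC101267149 were the other genes lower in EX. In EX leaves LOC101261793 had 141, 128 and 140.4 FPKM at 0 h, 24.4, 16.1 and 20.02 FPKM at 2 h and 96.9, 79.2 and 106 FPKM at 8 h. In MT leaves LOC101261793 had 152, 119.9 and 123.4 FPKM at 0 h, 30.9, 27.9 and 29.9 FPKM at 2 h and 87.9, 88.2 and 96.4 FPKM at 8 h. The 2 h difference was -0.55 (SE 0.14, limma adjusted p = 0.016), with every EX library below every MT library. It lost its call without the number 2 or the number 3 library of EX or the number 1 library of MT at 2 h, with limma adjusted p of 0.077, 0.053 and 0.073, in a range of 0.0042 to 0.077 over 14 alternatives. In EX leaves LOC101267149 had 32.9, 27.9 and 35.2 FPKM at 0 h, 2.8, 2.5 and 1.51 FPKM at 2 h and 33.6, 19.4 and 27.1 FPKM at 8 h. In MT leaves LOC101267149 had 31.5, 25.4 and 26.9 FPKM at 0 h, 7.08, 4.27 and 5.38 FPKM at 2 h and 17.8, 20.5 and 23.6 FPKM at 8 h. Here too the EX libraries of 2 h lay below those of MT, and the difference was -1.01 (SE 0.21, limma adjusted p = 0.0041).

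The glycine-rich domain protein 2-like gene LOC101249886 was the 1 gene higher in EX. In EX leaves LOC101249886 had 362, 159.6 and 366 FPKM at 0 h, 103, 37.5 and 41.1 FPKM at 2 h and 236, 173 and 253 FPKM at 8 h. In MT leaves LOC101249886 had 190.2, 146 and 73.6 FPKM at 0 h, 20.2, 12.6 and 14.04 FPKM at 2 h and 85.9, 87.98 and 100 FPKM at 8 h. Its EX libraries were above its MT libraries without overlap at 2 and 8 h and overlapped them at 0 h. The difference was 1.12 (SE 0.40, limma adjusted p = 0.17) at 0 h, 1.76 (SE 0.40, limma adjusted p = 0.0082) at 2 h and 1.25 (SE 0.40, limma adjusted p = 0.17) at 8 h. The AT-hook gene LOC101252483 showed a like order at 0 and 8 h. In EX leaves LOC101252483 had 46.2, 29.9 and 38.97 FPKM at 0 h, 4.07, 2.33 and 2.13 FPKM at 2 h and 33.2, 21.7 and 38.5 FPKM at 8 h. In MT leaves LOC101252483 had 24.96, 11.4 and 20.9 FPKM at 0 h, 1.54, 3.21 and 2.67 FPKM at 2 h and 9.97, 19.2 and 15.2 FPKM at 8 h. Its EX libraries lay above its MT libraries at both these hours, but the differences of 1.02 (SE 0.31, limma adjusted p = 0.09) at 0 h and 1.03 (SE 0.31, limma adjusted p = 0.14) at 8 h did not pass. DIVARICATA and salicylate carboxymethyltransferase had the other unadjusted p under 0.05 at 0 h, with differences of 0.62 (SE 0.24, limma adjusted p = 0.22) for DIVARICATA and 0.62 (SE 0.25, limma adjusted p = 0.26) for the transferase.

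The count at 2 h depended on the number 1 library of EX. Without it 16 of the 102 genes (15.7%) passed, where 16.5% of tested genes did, 15 of them lower in EX, including GAL83, serine decarboxylase and the rubisco accumulation factor gene. The 6 genes above were all among the 16.

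**Figure D5:**
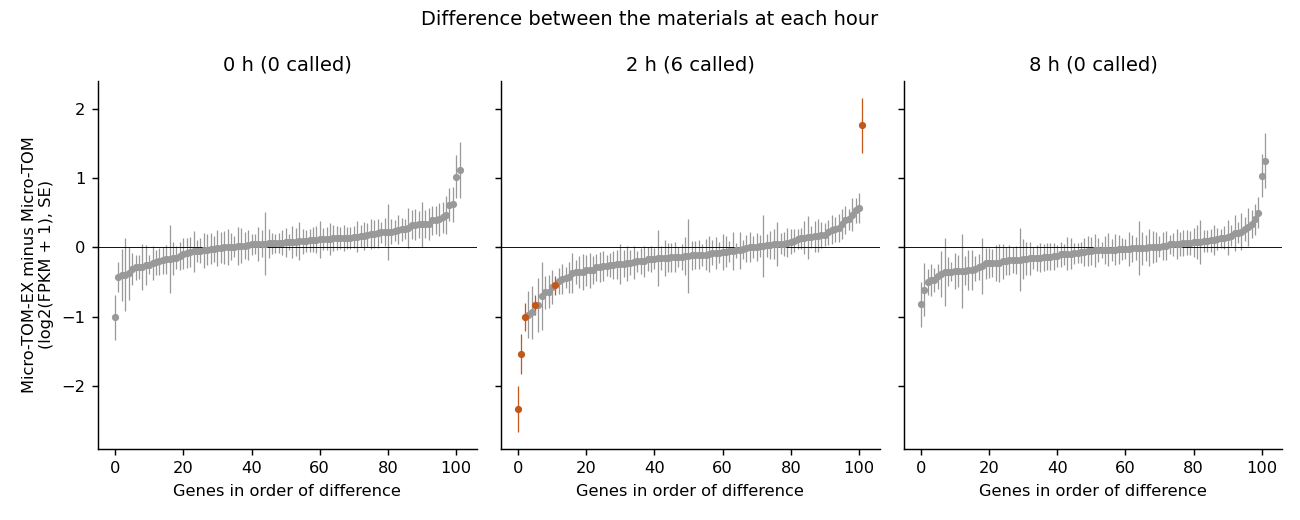
EX minus MT difference on the log2(FPKM + 1) scale (y axis) for the 102 genes, in order of the difference (x axis), at 0, 2 and 8 h. Points are limma estimates, lines 1 SE, and coloured points passed an adjusted p of 0.05: 0 genes at 0 h, 6 at 2 h and 0 at 8 h. The lowest point at 2 h is LOC101251942, which was listed at 0 in all EX libraries of that hour.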

How the data were processed

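Leaf RNA of 2 tomato materials was sequenced at 0, 2 and 8 h of NaCl, 3 libraries per group. The authors deposited 1 table with FPKM per gene and library, rounded to 2 decimals, and their own log2 fold changes, p-values and q-values for pairs of groups. The submitters' processing notes name RSEM 1.2.12, DESeq2 1.4.5, HISAT2 2.0.4 and Bowtie2 2.2.5, without their roles, and no build was found in the labels. The 18 further single-sample columns were not used. No counts were used. Symbols and names came from the deposited table, and 100 of the 102 IDs matched RefSeq's gene table.

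The 102 genes and all lists were chosen with earlier results of these data known. Roles were sorted by hand after the members were known. Genes are named by a rule: up to 3 of highest 0 h mean per name list, the 5 highest at 0 h, the 5 deepest at 2 h, those called between the materials, and those nearest to each threshold. Genes outside it, relatives included, were named after their values were seen.

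Levels were log2(FPKM + 1); fold changes of scarce genes are understated on that scale. The filter kept the 18402 genes that reached 1 FPKM in 3 or more libraries, all 102 genes among them. EX and MT were compared at each hour with limma 3.58.1 in R 4.3.3, 1 model over 6 groups with a mean trend, p-values adjusted over all tested genes. Libraries with the same number deviated together for all 3 numbers at 0 h (correlation of deviations 0.48, 0.44 and 0.13), for number 2 alone at 2 h (0.16) and for none at 8 h, with 0.1 as the limit; the pairing comes from the data, not the labels. Alternatives were a pseudocount of 0.1, median-ratio rescaling, other filters and thresholds, the groups of 1 hour alone, a replicate block, a 2-fold minimum, the authors' deposited q values and each library left out. Depth came from the spacing of FPKM values (tolerance 0.15; 93.0 to 96.0% of values whole).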

Additional observations from a re-analysis of the deposited data

How the results depend on the processing

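The rule took 102 genes; with a pseudocount of 0.1 it took 187 (96 of the 102 among them), after median-ratio rescaling 62 (60 shared), with an 8 h limit of 0.3 it took 42 and with a 2 h limit of -3 it took 19. Leaving out 1 library gave 94 to 109 genes. For EX against MT at 0 h, the authors' deposited q values called 1 gene (LOC101251942), where 3.86% of all genes passed. Leaving out 1 library gave 0 to 1, where 2.15 to 4.09% of tested genes passed. The 1 gene was LOC101265985 without the number 1 library of EX and LOC101245400 without the number 2 library of MT. The replicate block within the hour called 0, where 4.39% of tested genes passed. At 2 h the 6 calls (5.88%) became 10 (9.80%) with a pseudocount of 0.1, where 13.8% of tested genes passed. With 1 library left out they became 5 to 16, where 6.50 to 16.5% did. Rescaling gave 8, where 15.5% of tested genes passed, and a fit of the 2 groups alone 6 (5 shared), where 10.1% did. The 2-fold minimum gave 4, where 3.37% of tested genes passed, and the replicate block 9 (6 shared), where 14.2% did. The yippee-like gene LOC101261793 did not pass in the fit of 2 groups alone, and it and the ferrireductase were below the 2-fold minimum. At 8 h a fit of the 2 groups alone called 1 gene (LOC101249886), where 0.886% of tested genes passed. The authors' deposited q values called 4, where 2.71% of all genes passed. Leaving out 1 library gave 0 to 0, where 0.948 to 1.72% of tested genes passed, and the replicate block 0, where 1.49% did. None of the 6 genes called at 2 h changed sign in these alternatives. The median EX minus MT difference of the 102 genes at 0 h, 0.07 by limma, was -0.00068 in the authors' deposited table. Promoter motifs were not searched, as no sequence was used here. At 2 h 2 to 5 of the 102 genes had fewer than 10 fragments in a library, which limits their values there.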

Other observations

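In the authors' deposited table all 102 genes were lower at 2 h than at 0 h in both materials, with q values under 0.05. Their median log2 fold change was -2.70 in EX and -2.55 in MT, against 0.01 in EX and -0.02 in MT over tested genes. The genes were chosen by the same comparison, so the rule largely set this outcome. The share of all genes with such q values was not counted.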
